A study of Mus musculus with 20 samples.

Results

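The Fc gamma receptors of the mouse are a family of 4 genes, Fcgr1, Fcgr2b, Fcgr3 and Fcgr4, which encode the cell surface proteins that bind the constant part of immunoglobulin G. They were taken by gene symbol from all 53379 gene identifiers measured in 20 RNA-seq libraries, and all 4 passed the filter on low counts. They were chosen by their measured levels, because Fcgr3 was higher with GATA2 than with the control vector while genes of monocytes were lower, so that contrast is described below without a test. The study asked what the transcription factor GATA2, and variants of it, do in blood progenitors that make little of it. Lineage-negative progenitor cells, depleted of cells with mature blood cell markers, came from mouse fetal liver, were infected with a retroviral (MSCV) vector and were grown for 3 days before RNA was taken. There were 5 groups of 4 libraries. The first was wild-type cells with a control vector. The second was cells with both copies of an enhancer of Gata2 knocked out (enhancer-null), with the control vector. That enhancer is labelled -77 for its place relative to Gata2, a name given here without a unit. The other groups were enhancer-null cells with a vector for GATA2, for GATA2 R307W or for GATA2 T354M. For the first 3 groups the labels give the age E14.5, the strain C57BL/6J and medium with IL3 and SCF; for the R307W and T354M groups the labels used here give the cells, the vector and the days of culture, but not the age, strain or medium. The labels do not say whether replicates are separate animals, so p-values measure the spread between these libraries, which may be technical.

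Fc gamma receptors link antibody to the cells that act on it. Fcgr1 (CD64) binds single immunoglobulin G molecules with high affinity, Fcgr3 (CD16) binds immune complexes with low affinity, and Fcgr4 binds immune complexes with intermediate affinity. These 3 are activating: they signal through the gamma chain Fcer1g, whose activation motif recruits the kinase Syk after Src family kinases such as Lyn have phosphorylated it. Fcgr2b (CD32) is the only inhibitory member, and its own tail recruits the phosphatase SHIP1 (Inpp5d). Monocytes and macrophages carry all 4, while mast cells and eosinophils are known to carry Fcgr3 and Fcgr2b but little Fcgr1.

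In GRCm38 (mm10), Fcgr1 lies apart from the other members at chr3:96282909-96293969 on the minus strand. The other 3 genes lie side by side: Fcgr2b at chr1:170958617-170976547 (minus), Fcgr4 at chr1:171018920-171029761 (plus) and Fcgr3 at chr1:171051174-171064935 (minus). Fcgr2b and Fcgr3 share a run of 129 coding bases, the longest between any pair of members, and it is shown because reads inside it cannot be given to 1 gene. It spans exons 3 and 4 of both genes, chr1:170967980-170968081 and chr1:170966674-170966700 in Fcgr2b, and chr1:171057691-171057792 and chr1:171054167-171054193 in Fcgr3, all on the minus strand.
Fcgr2b and Fcgr3, shared coding run: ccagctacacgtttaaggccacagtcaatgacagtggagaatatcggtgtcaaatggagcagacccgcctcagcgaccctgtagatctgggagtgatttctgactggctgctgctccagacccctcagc
The next longest run was 14 bases, between Fcgr3 and Fcgr4. Of all windows of 100 bases in the protein-coding transcripts, 2.70% of those of Fcgr3 and 1.14% of those of Fcgr2b occurred in the other gene. The estimated counts of these 2 genes were fractional in every library, while those of Fcgr1 and Fcgr4 were whole numbers. Part of the Fcgr2b and Fcgr3 counts thus rests on how the reads were split, and its size was not measured. The windows pool all transcripts of a gene, and Fcgr3 had more counts (9999.6 beside 1191.4 for Fcgr2b in R307W replicate 1). That part may therefore be larger in Fcgr2b than its windows give. The limit also holds for the ratio and the correlation of Fcgr3 and Fcgr2b below. The antisense gene Gm38204 overlaps Fcgr2b, and the labels do not say whether counting used strand.

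The bases upstream of the transcription start are shown for the 3 activating members, since the group means of Fcgr3 and of the pair Fcgr1 and Fcgr4 differed in opposite directions between vector groups and the enhancer-null control. They are RefSeq sequences (the first of 2 start sites for Fcgr3) of GRCm38.p6, and the stretch outside annotated exons is given: chr3:96293970-96294219 (minus strand) for Fcgr1, chr1:171059404-171059626 (minus) for Fcgr3 and chr1:171018676-171018919 (plus) for Fcgr4. Capitals mark matches on either strand to a PU.1 core (GAGGAA, printed as its reverse complement where it lies on the other strand), an interferon-stimulated response element (GAAA, any 2 bases, and GAAA again) or a GATA site (GATA with A or T before it and A or G after it). No match overlaps another.
Fcgr1: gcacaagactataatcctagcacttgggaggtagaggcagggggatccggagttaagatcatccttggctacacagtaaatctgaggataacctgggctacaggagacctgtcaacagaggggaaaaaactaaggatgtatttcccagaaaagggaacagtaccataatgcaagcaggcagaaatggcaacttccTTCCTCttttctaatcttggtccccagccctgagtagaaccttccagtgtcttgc
Fcgr3: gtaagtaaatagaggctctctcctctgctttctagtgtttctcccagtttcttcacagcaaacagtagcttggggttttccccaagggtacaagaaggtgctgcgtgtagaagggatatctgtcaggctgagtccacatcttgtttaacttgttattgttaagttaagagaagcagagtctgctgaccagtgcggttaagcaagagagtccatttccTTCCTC
Fcgr4: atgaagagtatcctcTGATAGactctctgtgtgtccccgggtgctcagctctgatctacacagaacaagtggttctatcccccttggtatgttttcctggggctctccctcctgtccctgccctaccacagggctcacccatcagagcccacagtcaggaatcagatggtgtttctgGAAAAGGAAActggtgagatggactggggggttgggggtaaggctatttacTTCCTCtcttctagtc
All 3 hold a PU.1 core match, which starts at -55, -6 and -22 from the RefSeq start of Fcgr1, Fcgr3 and Fcgr4; 23.3% of 32851 mouse promoters hold one in the 250 bases upstream. Fcgr4 holds the interferon element, at -73 (2.98% of promoters), and a GATA match, at -235 (26.5%). The 250 upstream bases of Fcgr2b hold a match to none of the 3. These are matches of letters, and they do not show binding.

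Library totals ran from 22330475 to 33245876 estimated counts. The levels below are counts scaled to library size with TMM factors (CPM), unless TPM, which is also scaled to transcript length, is named. Gata2 was the check of the labels: it stood at 31.5 to 53.0 CPM in the wild-type controls and at 4.72 to 7.67 CPM in the enhancer-null controls. With a vector it was at 42.9 to 132 CPM (GATA2), 39.5 to 89.5 CPM (R307W) and 33.6 to 73.8 CPM (T354M), and the counts do not separate transcripts of the vector from those of the gene. Kit (14.2 to 32.5 TPM), which is also in the mast cell list below, and Ptprc (43.5 to 169 TPM) were present in all 20 libraries. Of 8 genes listed for progenitors, 5 rose after loss of the enhancer (Cd34, Meis1, Spi1, Ptprc and Hlf) and 2 fell (Kit and Myb). Of all genes, 20.1% rose and 23.2% fell (edgeR adjusted p under 0.05). The presence of Kit and Ptprc does not show a like share of progenitors in all groups. Replicate 4 of each of the 3 groups with a GATA2 vector stood apart from replicates 1 to 3 in several members, and values without it are given where they change a result.

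Fcgr3, the low-affinity activating receptor, had similar levels in wild-type and enhancer-null controls and was 2.10- to 2.43-fold higher in each group with a GATA2 vector than in either control. In bulk RNA, more cells of a type and more RNA per cell cannot be told apart, here and in every result below. Wild-type controls had 145, 218, 181 and 140.3 CPM in replicates 1 to 4, and enhancer-null controls had 171, 174, 170.1 and 185 CPM. With GATA2 the values were 447, 411, 329 and 476 CPM, with R307W 416, 369, 331 and 511 CPM, and with T354M 397, 281, 332 and 457 CPM. Every library with a GATA2 vector lay above every control library, and the 3 vector groups overlapped each other. The plot of the 4 genes by library shows the same values.

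**Figure D1:**
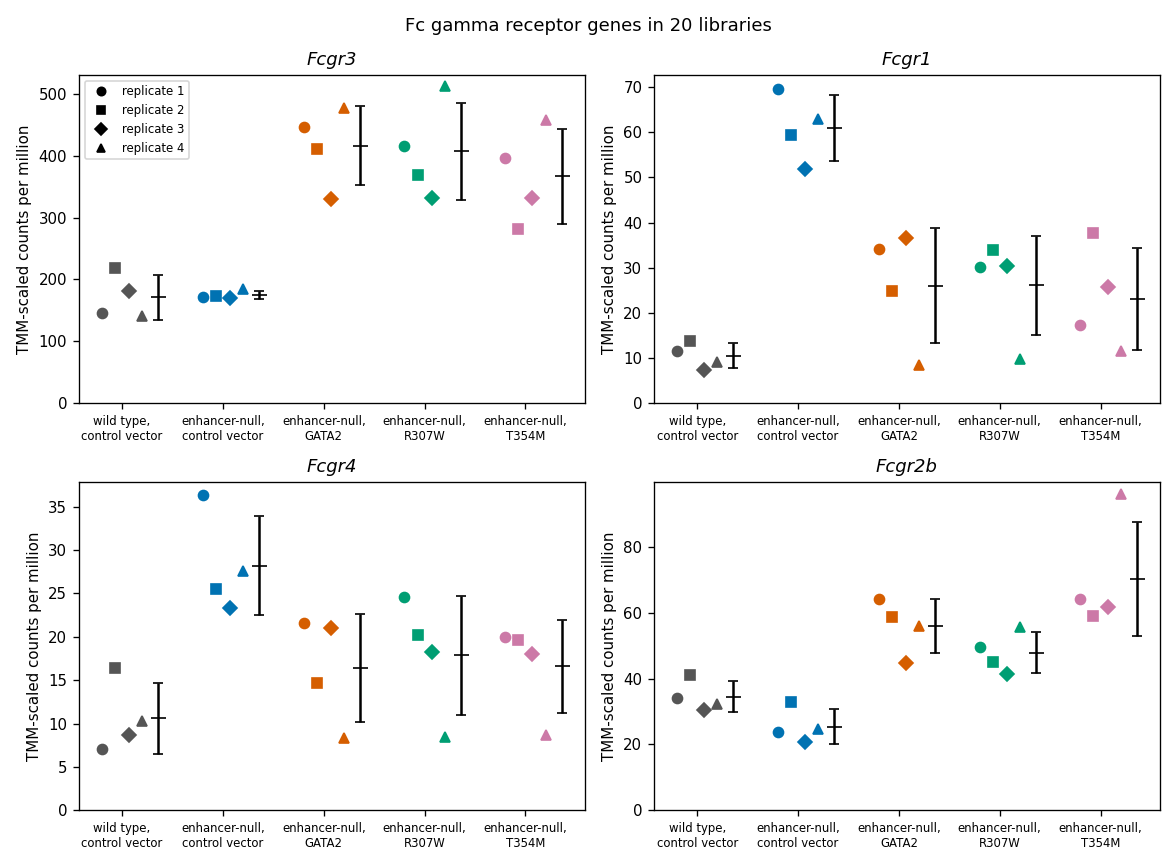
Level of each Fc gamma receptor gene (vertical axis, TMM-scaled CPM, from 0) in the 20 libraries; symbols give the replicate number, colours the 5 groups, and the bar beside each group its mean and SD (n = 4). Fcgr3 lay between 281 and 511 in the 12 libraries with a GATA2 vector and between 140.3 and 218 in the 8 control libraries, while Fcgr1 and Fcgr4 were highest in the enhancer-null controls.

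Loss of the enhancer left Fcgr3 with a log2 difference of 0.03 (95% interval -0.32 to 0.38, edgeR adjusted p = 0.9). GATA2 against the enhancer-null control gave 1.25 ± 0.17 (SE), a 2.38-fold difference, which is the value that chose the genes and was not tested. With the same control libraries, Fcgr3 rose by 1.22 ± 0.17 with R307W (adjusted p = 6.61e-05) and by 1.07 ± 0.17 with T354M (adjusted p = 0.000225). Against the wild-type controls it was higher by 1.25 ± 0.17 with R307W (adjusted p = 1.18e-05) and by 1.10 ± 0.17 with T354M (adjusted p = 3.48e-05). Fcgr3 kept these 4 calls in every alternative and without any single library. The comparisons of a variant with wild type, like R307W against T354M below, share no library with the contrast that chose the genes. They are still not independent of the choice, since the members were chosen with earlier results of these data known. R307W and T354M libraries were also taken to pair with GATA2 libraries by number. With GATA2, Fcgr3 was 1.28 ± 0.17 above wild type. This value is a description, because it shares the GATA2 libraries with the contrast that chose the genes. The same sharing holds for GATA2 against wild type in the other members, so those values are descriptions too.

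Fcgr1, the high-affinity receptor, went the other way: it was highest where the enhancer was missing and no GATA2 was supplied. Wild-type controls had 11.7, 13.8, 7.46 and 9.18 CPM, and enhancer-null controls had 69.6, 59.3, 51.9 and 63.0 CPM, a gain of 2.53 ± 0.43 on the log2 scale, or 5.79-fold (adjusted p = 9.83e-05). This was the largest difference of any member in any comparison made here. With GATA2 the values were 34.2, 25.0, 36.7 and 8.47 CPM, with R307W 30.2, 34.0, 30.4 and 9.90 CPM, and with T354M 17.5, 37.6, 25.7 and 11.6 CPM. All 12 of these libraries lay below all enhancer-null controls, and replicate 4 of each group lay in the range of the wild-type controls.

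Against the enhancer-null controls, Fcgr1 was lower by 1.23 on the log2 scale with GATA2 (SE 0.41, not tested). It was -1.23 ± 0.41 with R307W (adjusted p = 0.0451) and -1.40 ± 0.41 with T354M (adjusted p = 0.0248). The R307W call was lost without any 1 of 7 libraries, all 4 controls and R307W replicates 1, 3 and 4, with an adjusted p of 0.0621 to 0.144. The T354M call was lost without control replicate 1 or 4 or T354M replicate 1 or 4, with an adjusted p of 0.0537 to 0.0899. Fcgr1 also stayed above the wild-type level: by 1.31 ± 0.42 with GATA2 (adjusted p = 0.0228), 1.31 ± 0.42 with R307W (adjusted p = 0.0213) and 1.13 ± 0.42 with T354M (adjusted p = 0.0401), though the groups overlapped. Those calls too depended on single libraries: GATA2 lost its call without wild-type replicate 3 or 4 or GATA2 replicate 1 or 3 (adjusted p = 0.0542 to 0.065), R307W without wild-type replicate 3 or 4 or R307W replicate 2 (0.0511 to 0.0592), and T354M without wild-type replicate 1, 3 or 4 or T354M replicate 2 or 3 (0.0609 to 0.149). With limma on log2(TPM + 1) the adjusted p of Fcgr1 was 0.0869 for R307W against the enhancer-null control and 0.178, 0.081 and 0.152 for GATA2, R307W and T354M against wild type, past the threshold in none. With limma on log2(TPM + 0.1) the call for T354M against the enhancer-null control was lost too (adjusted p = 0.0583). GATA2 against wild type shares the GATA2 libraries with the contrast that chose the genes, and its Fcgr1 value is given as a description.

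Fcgr4, the receptor of intermediate affinity, was, like Fcgr1, highest in the enhancer-null controls as a group mean. Wild-type controls had 7.04, 16.4, 8.64 and 10.3 CPM, and enhancer-null controls had 36.4, 25.5, 23.3 and 27.6 CPM, a gain of 1.41 ± 0.35 on the log2 scale, or 2.66-fold (adjusted p = 0.00278). The values were 21.6, 14.7, 21.0 and 8.33 CPM with GATA2, 24.6, 20.2, 18.2 and 8.42 CPM with R307W, and 20.0, 19.6, 18.0 and 8.70 CPM with T354M. All libraries with GATA2 or T354M lay below all enhancer-null controls, while R307W replicate 1 lay above 1 control. The log2 differences from the enhancer-null control were -0.78 ± 0.34 with GATA2 (not tested), -0.66 ± 0.34 with R307W (adjusted p = 0.191) and -0.77 ± 0.34 with T354M (adjusted p = 0.133). Whether R307W and T354M passed there depended on the use of a replicate block, as described at the end. Against wild type the log2 differences were 0.63 ± 0.35 with GATA2 (adjusted p = 0.178), 0.75 ± 0.35 with R307W (adjusted p = 0.107) and 0.65 ± 0.35 with T354M (adjusted p = 0.156), and none passed. Without replicate 4 of every group, all 3 were past the threshold, with an adjusted p of 0.0279, 0.0116 and 0.0225 (0.0279 to 0.238, 0.0116 to 0.135 and 0.0225 to 0.167 over all alternatives). R307W also passed without R307W replicate 4 or wild-type replicate 2 (0.0269 to 0.0332), and T354M without wild-type replicate 2 (0.0482). The Fcgr4 values for GATA2 against wild type are a description, since they share the GATA2 libraries with the contrast that chose the genes.

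Fcgr2b, the inhibitory receptor, moved with Fcgr3 rather than with Fcgr1 and Fcgr4 once a GATA2 vector was present, and its group mean was highest with T354M. Wild-type controls had 34.1, 41.2, 30.5 and 32.4 CPM, and enhancer-null controls had 23.7, 32.8, 20.6 and 24.7 CPM; the ranges overlapped. The values were 64.3, 58.7, 44.6 and 56.0 CPM with GATA2, 49.5, 44.9, 41.3 and 55.8 CPM with R307W, and 64.3, 59.1, 61.9 and 96.1 CPM with T354M. Every library with a GATA2 vector lay above every control library. Loss of the enhancer lowered Fcgr2b by a log2 difference of -0.44 ± 0.17 (adjusted p = 0.0393). That call was lost without any 1 of 6 libraries, wild-type replicates 1, 2 and 4 and enhancer-null replicates 1, 3 and 4, with an adjusted p of 0.0596 to 0.157, and with no filter on low counts (0.0711), with only the 8 libraries compared (0.0507) and with limma (0.144 to 0.152).

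Against the enhancer-null control, Fcgr2b was 1.14 ± 0.17 higher with GATA2 on the log2 scale (not tested). It rose by 0.91 ± 0.17 with R307W (adjusted p = 0.00106) and by 1.47 ± 0.17, or 2.76-fold, with T354M (adjusted p = 6.93e-06). Against the wild-type control it was higher by 0.70 ± 0.17 with GATA2 (adjusted p = 0.00343), by 0.47 ± 0.17 with R307W (adjusted p = 0.0344) and by 1.03 ± 0.17 with T354M (adjusted p = 7.56e-05). The R307W call against wild type was lost without wild-type replicate 1, 3 or 4 or R307W replicate 1 or 4 (adjusted p = 0.0641 to 0.101), and without replicate 4 of every group (0.123). The Fcgr2b value for GATA2 against wild type is a description, since it shares the GATA2 libraries with the contrast that chose the genes.

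**Figure D2:**
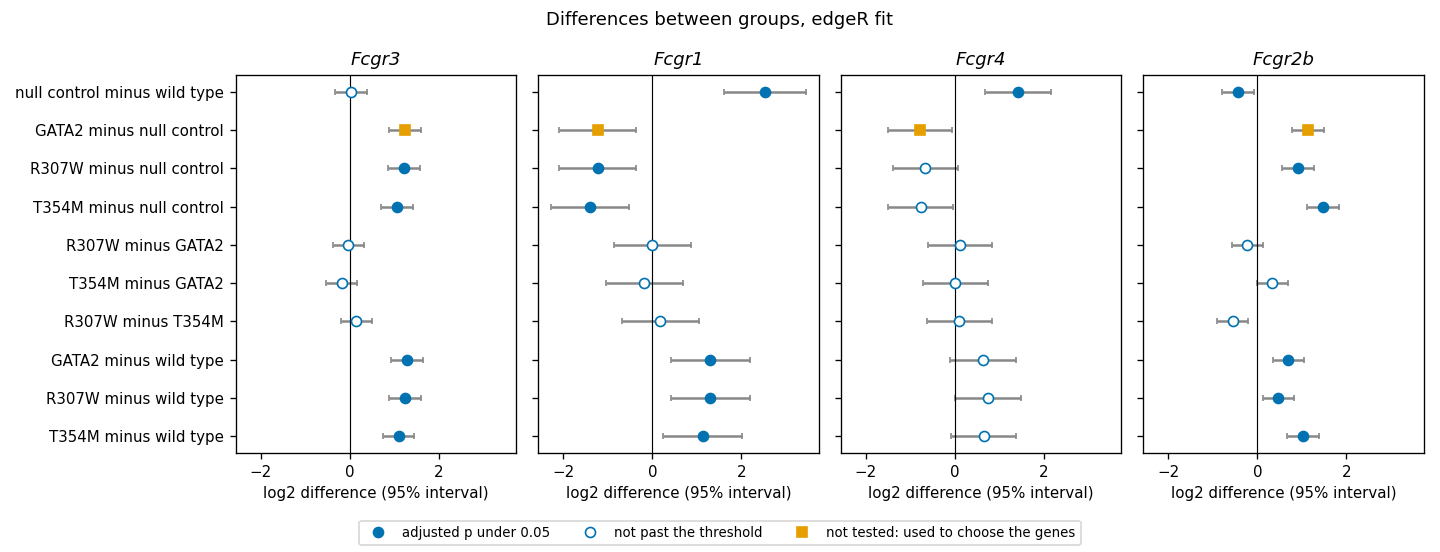
Log2 difference of each Fc gamma receptor gene (horizontal axis) in 10 comparisons between groups (rows), from 1 edgeR fit of 20 libraries; bars are 95% intervals, filled circles are past an adjusted p of 0.05, open circles are not, and squares mark the contrast that chose the genes. Fcgr3 and Fcgr2b lay to the right of 0 in all comparisons of a vector group with a control, and Fcgr1 and Fcgr4 lay to the left against the enhancer-null control and to the right against wild type.

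Counted over the family, 3 of 4 members passed after loss of the enhancer, where 43.3% of all 15835 genes tested did; that comparison shares the enhancer-null controls with the contrast that chose the genes. Each of R307W and T354M against the enhancer-null control also gave 3 of 4, against 17.5% and 17.4% of all genes; both comparisons share their control libraries with the contrast that chose the genes, where 19.2% of all genes passed. Against wild type, GATA2, R307W and T354M each gave 3 of 4, against 30.7%, 33.5% and 37.0% of all genes, and the count for GATA2 rests on libraries that chose the genes. By the measured ranges alone, the groups did not overlap in 2 of 4 members after loss of the enhancer, where 38.8% of all genes did not, in 3 with R307W against the enhancer-null control (27.1%), in 4 with T354M (24.9%), and in 4 with GATA2, which chose them (28.3%). Against wild type it was 2 of 4 for each of GATA2, R307W and T354M (25.3%, 26.1% and 29.1%). Between vectors it was 0 for R307W and GATA2 (6.08%), 0 for T354M and GATA2 (14.8%) and 1 for R307W and T354M (8.14%).

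No member passed between GATA2 and either variant, in comparisons that share the GATA2 libraries with the contrast that chose the genes. R307W against GATA2 gave 0 of 4 past edgeR's threshold and 0 at an unadjusted p under 0.05, where 1.73% of all genes passed, and T354M against GATA2 likewise gave 0 and 0, where 10.0% passed. DESeq2 called none in either comparison. For Fcgr3 the 95% interval of the log2 difference was -0.38 to 0.32 for R307W minus GATA2 and -0.53 to 0.17 for T354M minus GATA2. The intervals were wider for Fcgr1, at -0.86 to 0.87 and -1.04 to 0.69, and for Fcgr4, at -0.61 to 0.84 and -0.71 to 0.74. For Fcgr2b they were -0.57 to 0.13 and -0.02 to 0.68. Differences anywhere within these intervals are compatible with the 4 libraries a group, but the ends are not limits of detection. The intervals come from the fit without a replicate block, though these libraries were taken to pair by number. With the block no member passed either.

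Between the 2 variants, which share no library with the contrast that chose the genes, only Fcgr2b separated. All 4 R307W libraries (41.3 to 55.8 CPM) lay below all 4 T354M libraries (59.1 to 96.1 CPM), with a log2 difference of -0.55 ± 0.16 (unadjusted p = 0.00333, edgeR adjusted p = 0.077), so it did not pass; 3.49% of all genes did. With the replicate number as a block, which pairs these libraries, it passed (adjusted p = 0.0266 over 20 libraries and 0.0276 over 16), as it did with DESeq2 (0.034), within a range of 0.0266 to 0.314 over all alternatives. The 95% interval for R307W minus T354M was -0.20 to 0.50 for Fcgr3, -0.69 to 1.04 for Fcgr1 and -0.62 to 0.83 for Fcgr4.

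Per length, Fcgr3 was the main transcript of the family in every library. The 4 genes summed to 157 ± 35.0 TPM in wild-type controls (SD, n = 4), 198 ± 11.3 TPM in enhancer-null controls, 373 ± 59.4 TPM with GATA2, 375 ± 63.0 TPM with R307W and 355 ± 51.2 TPM with T354M. Fcgr3 made up 77.9% of that sum in wild type, 67.1% in enhancer-null controls and 83.3%, 83.8% and 79.5% with GATA2, R307W and T354M. Fcgr1 made up 3.03% in wild type and 12.6% in enhancer-null controls, then 2.85%, 3.28% and 3.02% with the 3 vectors. Fcgr4 took 5.11%, 11.6%, 3.65%, 4.12% and 4.09% in the same order of groups. The estimated transcript length of Fcgr1, which enters its TPM, varied between 1841 and 2589 bases over the libraries, and that of Fcgr2b between 1422 and 1590.

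The balance of the activating Fcgr3 to the inhibitory Fcgr2b, as a ratio of TPM, was 5.65 ± 0.835 in wild-type controls (SD, n = 4), 7.92 ± 1.43 in enhancer-null controls, 8.19 ± 0.862 with GATA2, 9.52 ± 0.558 with R307W and 6.01 ± 0.888 with T354M. All R307W libraries (9.05 to 10.3) lay above all T354M libraries (5.28 to 7.25), and all T354M libraries lay below those of GATA2 (7.68 to 9.48) and overlapped wild type (4.77 to 6.64). On log2 ratios the two-sided exact permutation test gave p = 0.0286, the smallest that 4 against 4 allows, for R307W against T354M, T354M against GATA2, GATA2 against wild type and R307W against wild type. Adjusted over the 9 ratios tested, each was 0.0643, so none passed. T354M against GATA2 and GATA2 against wild type share the GATA2 libraries with the contrast that chose the genes, and are given as a description. The test did not pair libraries by replicate number. A two-sided test over sign changes of 4 pairs could give no p under 0.125. T354M against wild type gave a log2 difference of 0.09 (exact permutation p = 0.514).

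**Figure D3:**
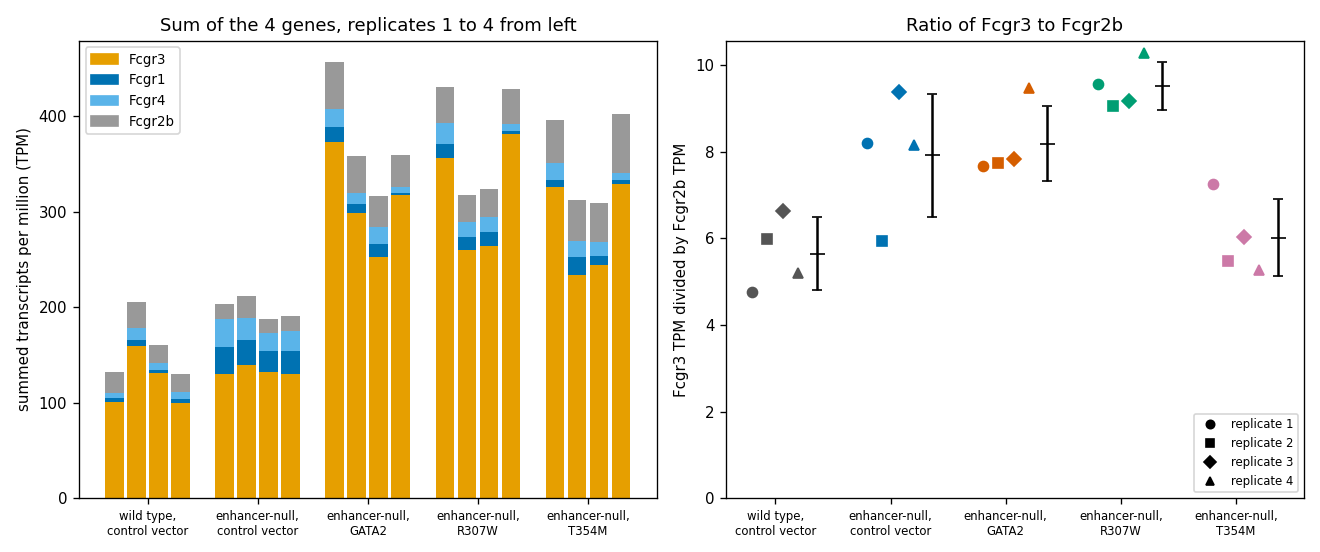
Left, TPM of the 4 genes stacked for each library (vertical axis from 0, replicates 1 to 4 from left in each group); right, TPM of Fcgr3 divided by TPM of Fcgr2b in each library, with group mean and SD (n = 4). The sums were higher with each GATA2 vector than in the controls, and the ratio was 9.05 to 10.3 with R307W and 5.28 to 7.25 with T354M.

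The members fell into 2 pairs by how they varied. Over the 20 libraries, Pearson's r of log2 CPM was 0.92 between Fcgr1 and Fcgr4 and 0.84 between Fcgr2b and Fcgr3, and -0.17 between Fcgr1 and Fcgr3. After the group means were taken out it was 0.85, 0.70 and -0.62. These are descriptions of 20 libraries in 5 groups. Replicate 4 of each vector group had the lowest Fcgr1 and Fcgr4 and the highest Fcgr3 of its group, and also the highest Gata2 (132, 89.5 and 73.8 CPM). In the control groups Fcgr1 and Fcgr4 of replicate 4 were neither lowest nor highest. Enhancer-null replicate 4 was also the highest of its group for Fcgr3 (185 CPM) and Gata2 (7.67 CPM), whereas wild-type replicate 4 was the lowest of its group for Fcgr3 (140.3 CPM) and in the middle for Gata2 (50.9 CPM).

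The shared gamma chain did not rise with Fcgr3 against the enhancer-null control. Against wild type, the gamma chain passed as higher with GATA2, R307W and T354M, where Fcgr3 was higher too. Fcer1g, which all 3 activating receptors need to reach the surface and signal, had 46.5 to 64.9 CPM in wild-type controls and 82.2 to 98.8 CPM in enhancer-null controls, a rise of 0.77 ± 0.12 on the log2 scale (adjusted p = 2.43e-05). It was at 83.5 to 94.5 CPM with GATA2, 65.0 to 78.2 CPM with R307W and 56.4 to 82.7 CPM with T354M. Against the enhancer-null control, Fcer1g differed by -0.33 ± 0.11 with R307W (adjusted p = 0.0548) and by -0.30 ± 0.11 with T354M (adjusted p = 0.0782). In TPM, Fcgr3 and Fcer1g stood at 133 and 147 in enhancer-null controls, at 310.5 and 146 with GATA2, at 316 and 119 with R307W, and at 283 and 122 with T354M.

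Of 16 other Fc receptors and shared chains, 8 were tested, and 5 rose and 2 fell after loss of the enhancer, where 20.1% of all genes rose and 23.2% fell. Those that rose were Fcer1g, the cytosolic antibody receptor Trim21, the neonatal receptor Fcgrt, Fcrl1 and Fcrls. The 2 that fell, Fcer1a and Ms4a2, are the alpha and beta chains of the high-affinity receptor for immunoglobulin E, which mast cells and basophils carry. Ms4a2 was at 35.7 ± 9.59 CPM in wild-type controls, 1.86 ± 0.17 in enhancer-null controls, 190 ± 65.7 with GATA2, 39.4 ± 25.3 with R307W and 21.4 ± 17.1 with T354M (SD, n = 4). It was lower than with GATA2 by a log2 difference of -2.27 ± 0.49 with R307W (adjusted p = 0.0174) and of -3.15 ± 0.51 with T354M (adjusted p = 0.00036). Fcer1a was at 1.66, 0.925, 1.28 and 4.14 CPM with R307W, while with T354M it was at no more than 0.0361 CPM in any library, and that difference passed (adjusted p = 0.000135). At most 1 read was counted in each T354M library, so no fold is given. Fcgr3 passed in none of these comparisons between vectors.

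Among 27 genes of activating Fc receptor signalling, 17 rose and 4 fell after loss of the enhancer, with a median log2 difference of 0.46 beside -0.05 over all genes. Syk rose by 0.86 ± 0.10 (adjusted p = 1.4e-06), the Src family kinase Lyn by 1.10 ± 0.19 (adjusted p = 0.0001), the phospholipase Plcg2 by 1.44 ± 0.14 (adjusted p = 1.38e-07), the PI3 kinase subunit Pik3cd by 1.20 ± 0.11 (adjusted p = 6.34e-08) and the exchange factor Vav1 by 1.03 ± 0.10 (adjusted p = 2.07e-07). Fcgr3, which signals through these proteins, had a difference of 0.03 in that comparison. Against the enhancer-null control, 5 rose and 11 fell with R307W, where 10.0% and 7.48% of all genes did, and 5 rose and 9 fell with T354M, where 9.26% and 8.11% did. Lyn fell by 0.65 ± 0.19 with R307W (adjusted p = 0.0212) and by 0.75 ± 0.19 with T354M (adjusted p = 0.00919). Syk fell by 0.34 ± 0.10 with R307W (adjusted p = 0.0242), while with T354M it differed by -0.15 ± 0.10 (adjusted p = 0.312). The adaptor Gab2 rose by 0.64 ± 0.12 with R307W (adjusted p = 0.00119) and differed by 0.25 ± 0.12 with T354M (adjusted p = 0.16). Against wild type, R307W had 13 of the 27 higher and 2 lower and T354M had 14 higher and 2 lower, where 16.5% and 17.0%, and 18.6% and 18.4%, of all genes were.

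Of 14 genes of inhibitory signalling, 5 rose and 1 fell after loss of the enhancer, with a median log2 difference of 0.32. Of all genes, 20.1% rose and 23.2% fell, with a median of -0.05. The number called in this list was near the 43.3% of all genes that passed. SHIP1 (Inpp5d), the phosphatase that Fcgr2b recruits, had 141 to 160.0 CPM in wild-type controls and 224 to 269 CPM in enhancer-null controls, a rise of 0.65 ± 0.07 (adjusted p = 1.4e-06). The phosphatase SHP-1 (Ptpn6) rose by 1.37 ± 0.16 (adjusted p = 1.79e-06), and the inhibitory receptor Pirb by 1.13 ± 0.20 (adjusted p = 0.000151). With R307W, 1 of the 14 rose and 6 fell against the enhancer-null control, and the counts were the same with T354M. Of all genes, 10.0% rose and 7.48% fell with R307W, and 9.26% and 8.11% with T354M. Inpp5d fell by 0.25 ± 0.07 with R307W (adjusted p = 0.028) and by 0.22 ± 0.07 with T354M (adjusted p = 0.0451), and Ptpn6 by 0.70 ± 0.16 (adjusted p = 0.00538) and 0.62 ± 0.16 (adjusted p = 0.0119). Fcgr2b itself rose in both comparisons and was lower after loss of the enhancer, so the receptor and the phosphatase it recruits had differences of opposite sign in all 3.

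Of 20 genes of phagocytosis and the oxidative burst, 14 rose and 0 fell after loss of the enhancer, with a median log2 difference of 0.49. Among them were the motor protein Myo1f (1.23 ± 0.11, adjusted p = 6.01e-08) and the Rac activator Dock2 (0.84 ± 0.10, adjusted p = 1.45e-06). Of all genes, 20.1% rose and 23.2% fell, with a median of -0.05. Against the enhancer-null control, 0 rose and 5 fell with R307W, and 0 rose and 1, Myo1f, fell with T354M. The shares of all genes were 10.0% and 7.48% with R307W, and 9.26% and 8.11% with T354M. Against wild type, 11 were higher with R307W and 12 with T354M, and 0 were lower in either. Of all genes, 16.5% were higher and 17.0% lower with R307W, and 18.6% and 18.4% with T354M. Dock2 stood at 274.7 to 285 CPM as group means in the 3 vector groups, beside 280.4 CPM in the enhancer-null and 156 CPM in the wild-type controls.

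Of 16 myeloid and mast cell transcription factors, 9 rose and 5 fell after loss of the enhancer, against 20.1% and 23.2% of all genes. PU.1 (Spi1), a factor of the myeloid lineage, rose by 1.37 ± 0.19 (adjusted p = 1.09e-05), while Gata1 fell by 4.03 ± 0.38 (adjusted p = 1.44e-07) and Gfi1 by 1.295 ± 0.11 (adjusted p = 4.49e-08). Against the enhancer-null control, PU.1 differed by -0.49 ± 0.19 with R307W (adjusted p = 0.0729) and by -0.24 ± 0.18 with T354M (adjusted p = 0.424). Cebpa, a factor of granulocyte and monocyte progenitors, rose by 0.95 ± 0.13 with R307W (adjusted p = 7.92e-05) and by 0.84 ± 0.13 with T354M (adjusted p = 0.000232), after a rise of 0.75 ± 0.13 on loss of the enhancer (adjusted p = 0.000148).

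Markers of several cell types moved between the same groups. Beside the counts of markers, 20.1% of all genes rose and 23.2% fell after loss of the enhancer. Against the enhancer-null control the shares were 10.0% and 7.48% with R307W, and 9.26% and 8.11% with T354M. These shares apply to all marker lists below. Of 21 monocyte and macrophage markers 17 were tested, and 15 rose after loss of the enhancer, while 9 fell with each of R307W and T354M against the enhancer-null control. Their summed level was 881 to 2059.5 TPM in wild-type controls, 3465 to 4239 TPM in enhancer-null controls, 576 to 2239.6 TPM with GATA2, 669 to 2255 TPM with R307W and 879 to 3215 TPM with T354M. Most of this sum was Lyz2, with group means of 1044, 2710.5, 1034.7, 1173.2 and 1370.4 TPM in the same order. The sum thus mainly follows that gene. Wild-type replicate 2, with the highest wild-type sum, also had the highest neutrophil sum (32950 TPM). The lowest sum of each vector group was replicate 4, as for Fcgr1 and Fcgr4. The tissue macrophage markers Cd163, Vsig4, Timd4 and Clec4f were at or near 0, with at most 0.19 TPM in any library. The part of these cells in the Fcgr1 and Fcgr4 differences was not tested.

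All 10 eosinophil markers fell after loss of the enhancer, and 10 rose with R307W and 9 with T354M against that control. Their sum was 735 to 1233 TPM in wild-type controls, 15.4 to 25.2 TPM in enhancer-null controls, 2190.0 to 3914 TPM with GATA2, 1754 to 4233 TPM with R307W and 1100.1 to 5888 TPM with T354M. Of 17 mast cell and basophil markers 16 were tested, and 15 fell and 1 rose after loss of the enhancer, while 9 rose and 1 fell with each variant. Their sum was 523 to 755 TPM in wild-type controls, 52.8 to 64.0 TPM in enhancer-null controls, 1194 to 3541 TPM with GATA2, 366 to 819 TPM with R307W and 333 to 1015 TPM with T354M. The variants differed from GATA2 in this list, with 9 lower for R307W and 12 lower for T354M, where 1.14% and 6.14% of all genes were, while Fcgr3 and Fcgr2b passed in neither comparison. Fcgr3 had means of 171 and 175 CPM in the wild-type and enhancer-null controls, whose eosinophil sums did not overlap. The part of either cell type in the Fcgr3 and Fcgr2b differences was not tested.

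**Figure D4:**
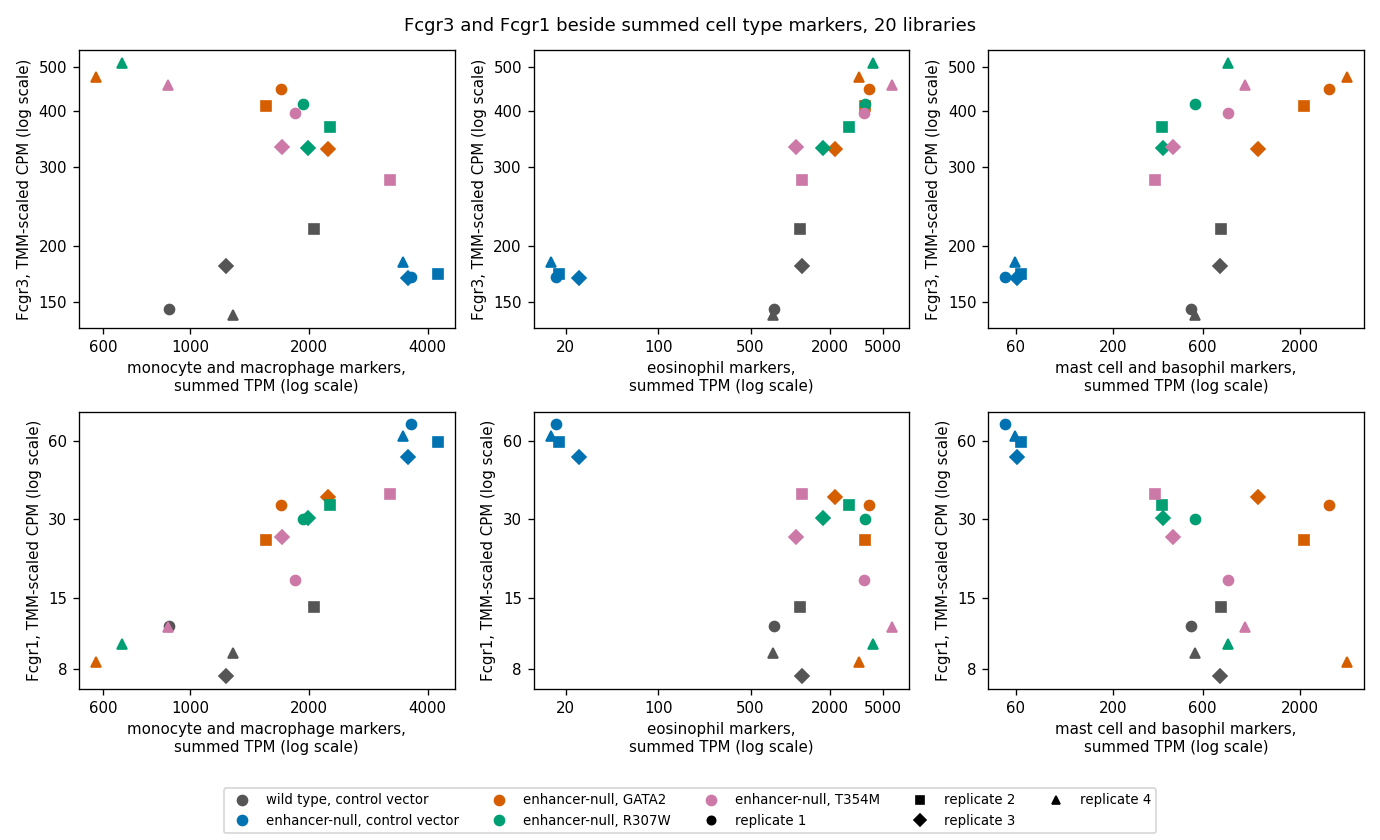
Fcgr3 (top) and Fcgr1 (bottom) in TMM-scaled CPM against the summed TPM of monocyte and macrophage, eosinophil, and mast cell and basophil markers in the 20 libraries; all axes are log scales, colours give the group and symbols the replicate. Fcgr1 was highest in the 4 enhancer-null controls, where the monocyte sum was 3465 to 4239 TPM, and Fcgr3 was at 281 CPM or more in the 12 libraries with a vector, whose eosinophil sums were 1100.1 to 5888 TPM. Most of the monocyte sum was Lyz2.

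Neutrophil markers summed to 12874 to 32950 TPM in wild-type controls, 5755 to 8341 TPM in enhancer-null controls, 2737 to 4887 TPM with GATA2, 3680.2 to 6391 TPM with R307W and 7218 to 10002 TPM with T354M, and 2 of 17 rose and 11 fell after loss of the enhancer. Against the enhancer-null control, 1 rose and 6 fell with R307W, and 3 rose (Ctsg, Mpo and Elane) and 1 fell with T354M. In wild-type controls most of the sum was S100a8 and S100a9, with group means of 7998.9 and 9040.3 TPM. Dendritic cell markers summed to 24.7 to 31.7 TPM in wild-type and 169 to 277 TPM in enhancer-null controls, and to 45.3 to 142 TPM in the 3 vector groups; 10 of 12 tested rose and 2 fell after loss of the enhancer, and 9 fell with R307W and 11 with T354M against the enhancer-null control. Of 9 B cell markers 3 were tested; Cd79b, Ebf1 and Blnk all rose after loss of the enhancer, and 3 fell with R307W and 2 with T354M against the enhancer-null control. The B cell markers summed to 4.93 to 6.83 TPM in wild-type controls, 14 to 21.3 TPM in enhancer-null controls and 5.53 to 14.7 TPM over the 3 vector groups, and the defining Cd79a and Ms4a1 had at most 0.13 TPM in any library. Of 9 natural killer cell markers 3 were tested; Klrd1 and Klrk1 rose and Nkg7 fell after loss of the enhancer, Nkg7 rose with R307W and with T354M against the enhancer-null control, and Klrd1 and Klrk1 fell with T354M. That list summed to 12.9 to 17.7 TPM in wild-type and 26.4 to 30.1 TPM in enhancer-null controls, 25.7 to 40.5 TPM with GATA2, 60.3 to 75 TPM with R307W and 52.3 to 68.6 TPM with T354M, of which Nkg7 made 57.8 TPM with R307W and 49.6 TPM with T354M as group means, while Ncr1 and Klrb1c had at most 0.1 TPM in any library. The part of these lists in the receptor results was not tested.

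On chromosome 1, 33 protein-coding genes start within 500 kb of a member and 24 were tested: 11 rose and 2 fell after loss of the enhancer, 0 rose and 5 fell with R307W, and 0 rose and 5 fell with T354M, both against the enhancer-null control, where Fcgr2b and Fcgr3 rose. Over all genes tested, 20.1% rose and 23.2% fell after loss of the enhancer, 10.0% and 7.48% with R307W, and 9.26% and 8.11% with T354M. The nearest of those tested, Cfap126, Sdhc and Dusp12, differed by 0.21 ± 0.33, 0.00 ± 0.08 and -0.06 ± 0.11 with R307W, and none passed. Fcer1g lies 169 kb from Fcgr3 and is among the 24. Around Fcgr1, 36 of 41 genes were tested, of which 5 rose and 6 fell after loss of the enhancer, and the nearest, Hist2h2bb, Hist2h3b and Hist2h4, differed by -0.19 ± 0.10, -0.30 ± 0.66 and -0.33 ± 0.47 in that comparison, where Fcgr1 rose by 2.53. Histone genes of this cluster are near-identical copies, so their counts are uncertain.

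Among 9427 genes with a mean of at least 5 CPM, the 5 whose log2 CPM was most like each member over the 20 libraries were named by Pearson's r, as a description. For Fcgr1 they were Csf1r (0.98), the receptor for macrophage colony-stimulating factor, Tifab (0.98), Pld4 (0.98), Tlr2 (0.98) and Irf5 (0.98). For Fcgr4 they were Gbp6 (0.98), Il13ra1 (0.97), Oas2 (0.97), Ifi209 (0.96) and Oasl2 (0.96), of which all but Il13ra1 belong to gene families known to respond to interferon. For Fcgr3 they were the kinase Tec (0.97), Cst7 (0.96), Tent5a (0.96), Sec11c (0.95) and Angpt1 (0.95). For Fcgr2b 4 of them were Irak3 (0.97), Eml5 (0.95), Ptpn7 (0.94) and Rab44 (0.94). Within groups the values were 0.95 for Csf1r, 0.98 for Gbp6, 0.90 for Tec and 0.89 for Irak3. Csf1r stood at 82.1, 443, 185, 195 and 186 CPM as means of the wild-type, enhancer-null, GATA2, R307W and T354M groups, and Tec at 38.1, 36.1, 80.4, 70.4 and 78.1 CPM.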

How the data were processed

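RNA-seq of total RNA from 20 libraries was analysed, 4 in each of 5 groups. The authors deposited, per library, RSEM gene tables with expected counts, TPM and mean transcript lengths per gene, per the file headers. The submitters' processing notes name STAR 2.5.2b, RSEM 1.3.0 and mm10. Expected counts split reads that fit several genes and were rounded to whole numbers here; rows without a symbol held at most 0.0148% of counts. Totals of 22330475 to 33245876 left at least 159 counts behind each member in each library.

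Genes passing edgeR's filter (15835) were fitted once over the 20 libraries with TMM scaling and the quasi-likelihood test (edgeR 4.0.16, R 4.3.3). Adjusted p-values are Benjamini-Hochberg values over all genes tested, with a threshold of 0.05, and 95% intervals use the SE. The deposited TPM served for levels between genes, for the Fcgr3 to Fcgr2b ratio and for limma 3.58.1. Alternatives were other scaling, no filter, only the libraries compared, a replicate block, DESeq2 1.42.0, limma on log2(TPM + 1) or log2(TPM + 0.1), and leaving out replicates. The test was checked on simulated counts.

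The members and lists were chosen with earlier results of these data known. Named beside the members were genes from each pathway list among the 3 with the lowest p after loss of the enhancer or for R307W or T354M against wild type, with Fcer1g, Fcer1a, Inpp5d, Ptpn6, Syk and Lyn whatever their result, the 3 nearest neighbours of each locus and the 5 genes most like each member; Fcgrt, Fcrl1 and Fcrls were named after their values were seen. Some genes and a motif that these rules name are not reported here. Libraries with the same replicate number deviated together (every r of deviations above 0.1) for GATA2 and the enhancer-null control (0.124 to 0.300), R307W and GATA2 (0.219 to 0.623), T354M and GATA2 (0.159 to 0.551) and R307W and T354M (0.204 to 0.667), so the label numbers were taken to pair these. Elsewhere the lowest r was -0.105 to 0.0619.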

Additional observations from a re-analysis of the deposited data

Results flagged for a closer look

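In 3 of 25 sets of 4 libraries, 1 library stood far from the others by Dixon's test, which flags about 1 in 20 sets by chance, and all 3 were replicate 4 of a group with a GATA2 vector. Fcgr1 was at 9.90 CPM in R307W replicate 4, beside 30.2 to 34.0 CPM in replicates 1 to 3. Fcgr2b was at 96.1 CPM in T354M replicate 4, beside 59.1 to 64.3 CPM. The log2 ratio of Fcgr3 to Fcgr2b was 3.24 in GATA2 replicate 4, which is a ratio of 9.48 beside 7.68 to 7.84. The monocyte and macrophage markers were lowest in the same libraries, at 576, 669 and 879 TPM; their part in these values was not tested.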

How the results depend on the processing

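Fcgr3 kept its calls in all comparisons with a control that passed, and Fcgr1 and Fcgr4 kept theirs after loss of the enhancer, under every alternative and without any single library. The count of members called for R307W against T354M was 0 and became 1, Fcgr2b, with the replicate block over 20 or 16 libraries and with DESeq2. With 1 library left out, the counts ran from 1 to 4 for R307W against wild type (1 without wild-type replicate 3 or 4) and from 2 to 4 for T354M against wild type. They ran from 2 to 3 for loss of the enhancer, for each variant against the enhancer-null control and for GATA2 against wild type.

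The replicate block also moved Fcgr4 past the threshold for R307W against the enhancer-null control (adjusted p = 0.0111 over 16 libraries) and for T354M (0.0397 over 20 and 0.00648 over 16). It changed no other call of a member. Libraries of the same number had an r of deviations of 0.0192 to 0.311 for R307W and that control, and of 0.0619 to 0.313 for T354M. Libraries of other numbers had medians of -0.0656 and -0.0520. In those 2 comparisons, 3 of 4 R307W and 4 of 4 T354M libraries correlated best with the control library of their own number.

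Signs turned only where the difference was near 0. Fcgr3 after loss of the enhancer was -0.081 without replicate 4 of every group. R307W minus GATA2 for Fcgr1 was -0.017 with RLE scaling, -0.0057 with no filter, -0.00056 and -0.0048 with the replicate block over 20 and 16 libraries, -0.017 with only the 8 libraries, -0.015 with DESeq2 and -0.019 without replicate 4; for Fcgr3 it was 0.016 with limma at both pseudocounts. T354M minus GATA2 was 0.013 for Fcgr1 with limma on log2(TPM + 0.1), and for Fcgr4 -0.0022 with RLE scaling, -0.00048 with the replicate block over 16 libraries, -0.0055 with only the 8 libraries and -0.0018 with DESeq2. With 1 library left out, the log2 difference ran from -0.038 to 0.20 for Fcgr3 after loss of the enhancer, and for R307W minus GATA2 from -0.29 to 0.28 (Fcgr1), -0.16 to 0.048 (Fcgr3) and -0.10 to 0.35 (Fcgr4). It ran from -0.53 to 0.033 (Fcgr1) and -0.21 to 0.21 (Fcgr4) for T354M minus GATA2, and from -0.043 to 0.52 (Fcgr1) and -0.10 to 0.34 (Fcgr4) for R307W minus T354M. The log2 ratio of Fcgr3 to Fcgr2b ran from -0.069 to 0.15 for GATA2 minus the enhancer-null control and from -0.0038 to 0.17 for T354M minus wild type. The cause was not tested.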
